A study of Mus musculus with 2 samples.

Results

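Dividing cells among the cells isolated from mouse liver were picked out by the transcripts of 2 genes, Mki67 and Top2a, and sorted into lineages by a short set of marker genes. Transcripts were counted by unique molecular identifier (UMI). A droplet barcode, taken as 1 cell, was kept if it held 500 UMI and 200 genes or more and if mitochondrial genes took no more than 10% of its UMI. It was called proliferating when its Mki67 and Top2a UMI added up to 4 or more. Barcodes with at least 50 Jchain UMI (plasma cells), at least 20 UMI of Ngp, Camp and Ltf (immature neutrophils) or at least 2 UMI of Xcr1 and Clec9a (type 1 dendritic cells) were set aside. Of 11192 deposited barcodes, 10049 passed these limits and 234 of them were proliferating, 2.33% (exact Clopper-Pearson 95% interval 2.04 to 2.64%). Another 41 barcodes reached the proliferation minimum but were set aside, 26 as plasma cells, 14 as type 1 dendritic cells and 1 as an immature neutrophil. Lineages were read from Cd3d and Cd3e (T cell), Ncr1 and Klrb1c (natural killer, NK, cell), Ebf1 and Ms4a1 (B cell), Ly6c2 and Ccr2 (monocyte), Clec4f (Kupffer cell, the resident liver macrophage) and Stab2 and Kdr (endothelial cell), with at least 2 UMI for each set. Endothelial cells line vessels and are not leukocytes, so the lineages reach beyond the blood cells that the sort was labelled for.

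The study compared liver immune cells of WT mice with those of Rcrin KO mice, both of strain RedMUC298trTg and 8 weeks old, by droplet sequencing of collagenase-digested, sorted tissue. The title calls the knockout conditional, in liver, and the controls Rcrin flox; the sources used here name no Cre line. The 3 files of the WT sample and the 3 files of the Rcrin KO sample were identical byte for byte, so all 11192 barcodes were shared, only 1 matrix could be described, and its genotype cannot be told. No genotype was compared, there is no replicate, and no test or p-value is given. Intervals on shares (exact Clopper-Pearson), on counts per 1000000 UMI (CPM, exact Poisson) and on CPM ratios (exact conditional) are 95% intervals, treat UMI as independent and cover counting error only, not animals. Proliferating barcodes held a median of 15766 UMI (1327 to 93990) and 3971 genes, against 4050.5 UMI and 1643.5 genes in the 8918 kept barcodes with no UMI of Mki67 or Top2a. A fixed minimum of UMI is met more easily in a deep barcode, and the part of depth in the lineage differences was not tested beyond the thinned values given below. Scrublet marked 7 of the 234 barcodes (2.99%) as doublets, against 329 of the 10049 (3.27%).

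Mki67 encodes Ki-67, a coat protein of mitotic chromosomes that is made in cycling cells and lost from resting ones. Top2a encodes DNA topoisomerase II alpha, which untangles sister chromatids, and its transcript builds up from S phase to mitosis. Genes needed for DNA replication are switched on at the start of S phase by E2F factors. Genes needed for mitosis are kept silent in resting cells by the DREAM complex. They are switched on later by B-MYB and FOXM1 through CHR elements of their promoters, which often hold CCAAT elements too. In the liver, Kupffer cells maintain themselves by local division, and T and NK cells divide when stimulated. The promoters of Mki67 and Top2a are shown because the barcodes were chosen by them, that of Ube2c, which encodes the ubiquitin-conjugating enzyme of the anaphase-promoting complex, as a mitotic gene outside the rule, and that of Pcna, the sliding clamp of DNA polymerase, as a replication gene. Each runs 5′ to 3′ on the gene's strand over 300 bases, 250 before the start and 50 after it (RefSeq, GRCm38.p6), with matches to TTTGAA (the CHR core), CCAAT and GCGGGAA (an E2F core) on either strand in capitals.
Mki67 (chr7:135716330-135716629, minus strand): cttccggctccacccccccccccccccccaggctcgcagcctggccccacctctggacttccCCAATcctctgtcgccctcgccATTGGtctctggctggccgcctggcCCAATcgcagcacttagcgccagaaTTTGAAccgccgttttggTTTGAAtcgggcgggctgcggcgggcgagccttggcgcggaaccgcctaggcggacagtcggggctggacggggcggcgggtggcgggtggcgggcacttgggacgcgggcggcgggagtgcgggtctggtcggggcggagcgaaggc
Top2a (chr11:99024140-99024439, minus strand): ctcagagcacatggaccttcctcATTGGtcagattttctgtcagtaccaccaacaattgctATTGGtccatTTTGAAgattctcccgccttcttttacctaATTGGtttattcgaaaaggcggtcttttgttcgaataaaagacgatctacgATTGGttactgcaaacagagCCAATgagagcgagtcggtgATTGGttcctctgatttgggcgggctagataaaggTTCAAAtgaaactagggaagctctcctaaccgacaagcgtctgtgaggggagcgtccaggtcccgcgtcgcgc
Ube2c (chr2:164769679-164769978, plus strand): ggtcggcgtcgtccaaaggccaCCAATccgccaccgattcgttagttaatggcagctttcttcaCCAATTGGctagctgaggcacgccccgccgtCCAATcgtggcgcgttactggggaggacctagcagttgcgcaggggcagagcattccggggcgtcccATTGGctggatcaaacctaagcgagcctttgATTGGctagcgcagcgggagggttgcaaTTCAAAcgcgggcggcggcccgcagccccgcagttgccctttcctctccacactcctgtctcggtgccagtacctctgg
Pcna (chr2:132253131-132253430, minus strand): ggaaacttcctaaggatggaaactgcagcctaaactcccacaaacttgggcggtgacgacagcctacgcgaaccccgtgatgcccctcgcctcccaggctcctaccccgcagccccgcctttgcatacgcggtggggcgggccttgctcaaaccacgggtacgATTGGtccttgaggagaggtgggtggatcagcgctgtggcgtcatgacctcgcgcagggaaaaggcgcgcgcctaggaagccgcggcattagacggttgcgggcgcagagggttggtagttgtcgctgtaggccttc
The Mki67 window held 2 CHR and 3 CCAAT matches, the Top2a window 2 and 6, the Ube2c window 1 and 6, and the Pcna window none and 1; matches of different motifs can overlap. None of the 4 held GCGGGAA. Among the mitosis list used below, 16 of 22 promoter windows found in RefSeq (72.7%) held TTTGAA, against 3 of 26 windows (11.5%) of the DNA replication list and 17.9% of all 32851 windows. CCAAT was in 81.8% of the mitosis windows, 53.8% of the replication windows and 37.4% of all, and GCGGGAA in 0 of 22, 30.8% and 4.60%. A match describes letters only.

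More than 1 lineage minimum was met by most proliferating barcodes. Exactly 1 lineage was met by 88 barcodes, several by 141 (60.3%, against 24.5% of all 10049 kept barcodes) and none by 5. Median depth was 15766 UMI in proliferating and 4252 UMI in all kept barcodes, and a fixed lineage minimum is met more easily in deep ones. The part of depth in this contrast was not tested. The largest set was 78 barcodes with both the T and the monocyte minimum. Next came 31 that met the monocyte minimum alone, 27 that met T alone, 24 that met Kupffer and endothelial together, 11 Kupffer alone, 11 NK with monocyte, 8 T with NK and monocyte, 7 B, 7 endothelial, 5 NK and 20 in rarer combinations. The combinations were set up as groups of their own after their counts had been seen.

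**Figure D1:**
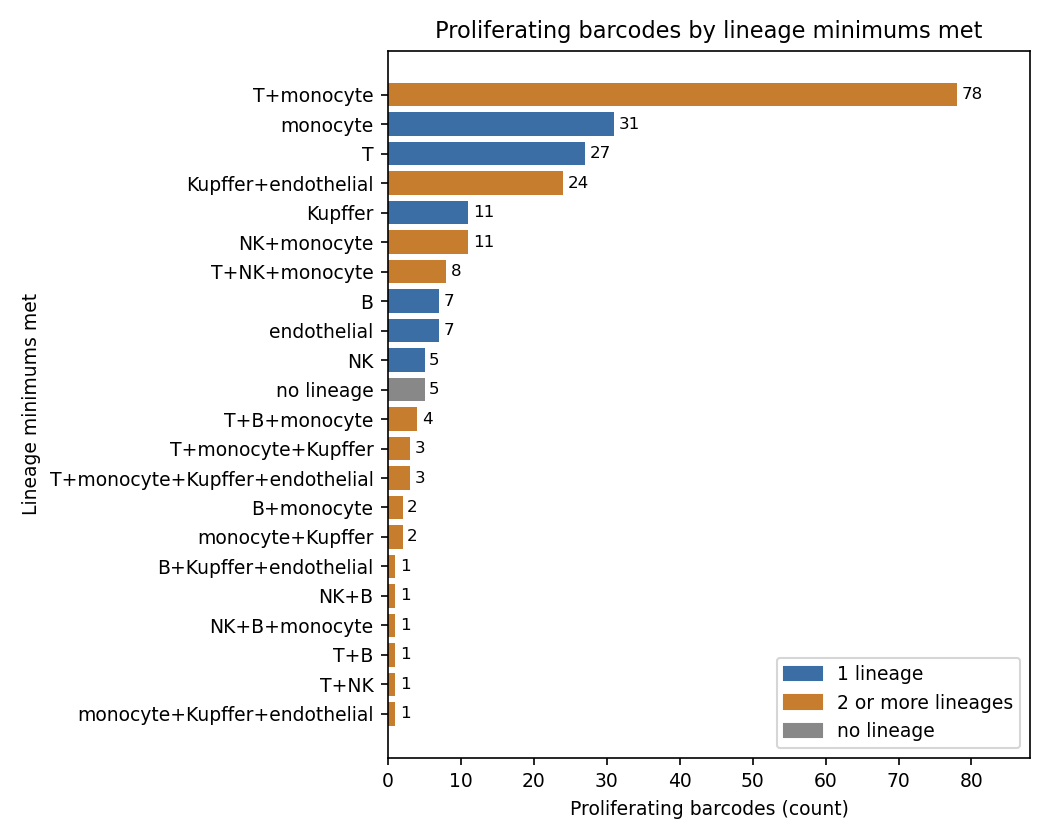
Number of proliferating barcodes (x axis) for each set of lineage minimums met (y axis), coloured by how many lineages were met. The T with monocyte set holds 78 of the 234 barcodes, and sets of several lineages outnumber single lineages.

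The rule genes themselves describe how the barcodes were chosen. The median barcode held 17 UMI of the pair and the highest 140. Both genes were seen in 182 barcodes, Mki67 alone in 43 and Top2a alone in 9. Just outside the minimum, 66 kept barcodes held 3 UMI of the pair, with a median of 5.10 UMI per 10000 from the 25 replication genes and 1.66 from the 25 mitosis genes; the 25 barcodes just inside it, at 4 UMI, had medians of 3.72 and 2.06. Pair levels were 2330 CPM in the T-only barcodes, 1807 in T with monocyte, 1241 in monocyte only, 782 in Kupffer with endothelial and 491 in Kupffer only. As a gauge of free RNA, 135 kept barcodes that met no lineage and carried at least 500 UMI of the neutrophil genes S100a8 and S100a9 (median 3183 UMI) were read for the same pair. One of them, 0.741% (0.0188 to 4.06%), held a UMI. None of the 135 reached 4, which has an exact interval of 0 to 2.70% (a count of 3 would be 2.22%), so this gauge is too small to set a limit below the 2.33% share of all kept barcodes. Of all kept barcodes (median 4252 UMI) 11.3% held at least 1 UMI.

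At full depth and with other lineages allowed, the share meeting the proliferation minimum ran from B cells at the bottom to Kupffer cells, monocytes and T cells at the top. On the wider cycle lists described below, 16 of 31 proliferating monocyte-only and 6 of 11 Kupffer-only barcodes lay below their group's limit. So did 8 of 24 Kupffer with endothelial, 9 of 78 T with monocyte and 2 of 27 T-only barcodes. Counting every barcode that met a lineage, whatever else it met, 45 of 732 Kupffer barcodes were proliferating (6.15%, 4.52 to 8.14%), 144 of 2735 monocyte barcodes (5.27%, 4.46 to 6.17%) and 125 of 2538 T barcodes (4.93%, 4.12 to 5.84%), and these 3 intervals overlap. Endothelial barcodes followed with 36 of 1277 (2.82%, 1.98 to 3.88%), then NK with 27 of 971 (2.78%, 1.84 to 4.02%), whose intervals overlap each other. Of the 36, 24 met the Kupffer and endothelial minimums together and 7 the endothelial minimum alone, so most are also counted as Kupffer. Only 5 of the 27 met NK alone. B barcodes were lowest, with 17 of 3215 (0.529%, 0.308 to 0.845%). Median depth was 14049 UMI in Kupffer, 8449 in endothelial, 6232 in monocyte, 5228 in T, 4628 in NK and 3341 in B barcodes. After every barcode was thinned to 2000 UMI, at least 1 UMI of the pair was left in 9.67% of T, 9.37% of monocyte, 8.72% of Kupffer, 7.86% of NK, 3.78% of endothelial and 3.51% of B barcodes; the unthinned shares with 1 UMI were 18.2%, 18.1%, 25.5%, 14.7%, 12.2% and 6.19%. Barcodes under 2000 UMI were left out of the thinned shares, 67 of the Kupffer, 24 of the T, 23 of the monocyte, 4 of the NK, 33 of the endothelial and 77 of the B barcodes. At equal depth Kupffer barcodes were thus no longer above T and monocyte barcodes, and the endothelial interval overlapped the B interval. Since 96 of the 125 proliferating T barcodes also met the monocyte minimum, the T and monocyte shares largely count the same barcodes. Restricted to a single lineage, 3.62% of monocyte, 3.45% of Kupffer, 2.92% of T, 1.36% of NK, 0.858% of endothelial and 0.240% of B barcodes were proliferating. Thinned to 2000 UMI, single-lineage shares with at least 1 UMI were 1.66% (0.885 to 2.82%) for endothelial and 3.02% (2.42 to 3.72%) for B barcodes. Their order was thus reversed there, with overlapping intervals.

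**Figure D2:**
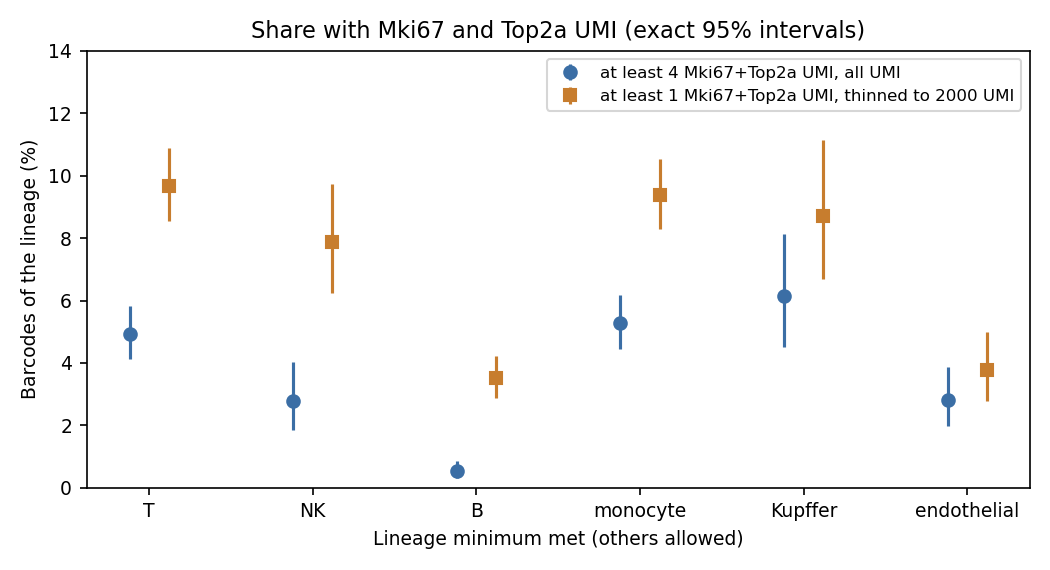
Share of barcodes (y axis, percent) of each lineage (x axis, other lineages allowed) with at least 4 UMI of Mki67 and Top2a at full depth (circles) and with at least 1 UMI after thinning to 2000 UMI (squares), with exact 95% intervals. Kupffer barcodes are highest at full depth at 6.15%, and T, monocyte and Kupffer intervals overlap after thinning.

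Markers that the rule did not use were read to see what the combined groups hold. The 12 further T cell markers (Cd3g, Trac, Trbc1, Trbc2, Lck and others) averaged 469 CPM in the 78 T with monocyte barcodes and 459 CPM in the 27 T-only barcodes, and all 78 carried them. Trbc2, which encodes a constant region of the T cell receptor beta chain, stood at 1477 CPM (1410 to 1548) and was seen in every one of the 78, and Cd3g at 554 CPM likewise. The 12 further monocyte markers averaged 130 CPM in the same barcodes, 71.8 in T-only and 1411 in monocyte-only barcodes; their sum ran from 0 to 226 UMI per 10000 with a median of 4.89, against a median of 214 (1.77 to 535) in monocyte-only barcodes. Lyz2, the lysozyme gene of myeloid cells, was seen in 14.1% of the T with monocyte barcodes at 491 CPM and in 90.3% of the monocyte-only barcodes at 9883 CPM. Fn1 was seen in 3 of the 78, F13a1 in 2 and Chil3 in none. Ly6c2 alone reached 2 UMI in 26 of the 78, Ccr2 alone in 17 and both in 34, and 1 had a single UMI of each; Ly6c2 encodes a chain of Ly6C, and both Ly6C and the chemokine receptor CCR2 are also carried by subsets of T cells. S100a8 and S100a9 summed to 1402 UMI in this group, of which 3 barcodes held 1358 (96.9%). Scrublet marked 3 of the 78 as doublets (3.85%).

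**Figure D3:**
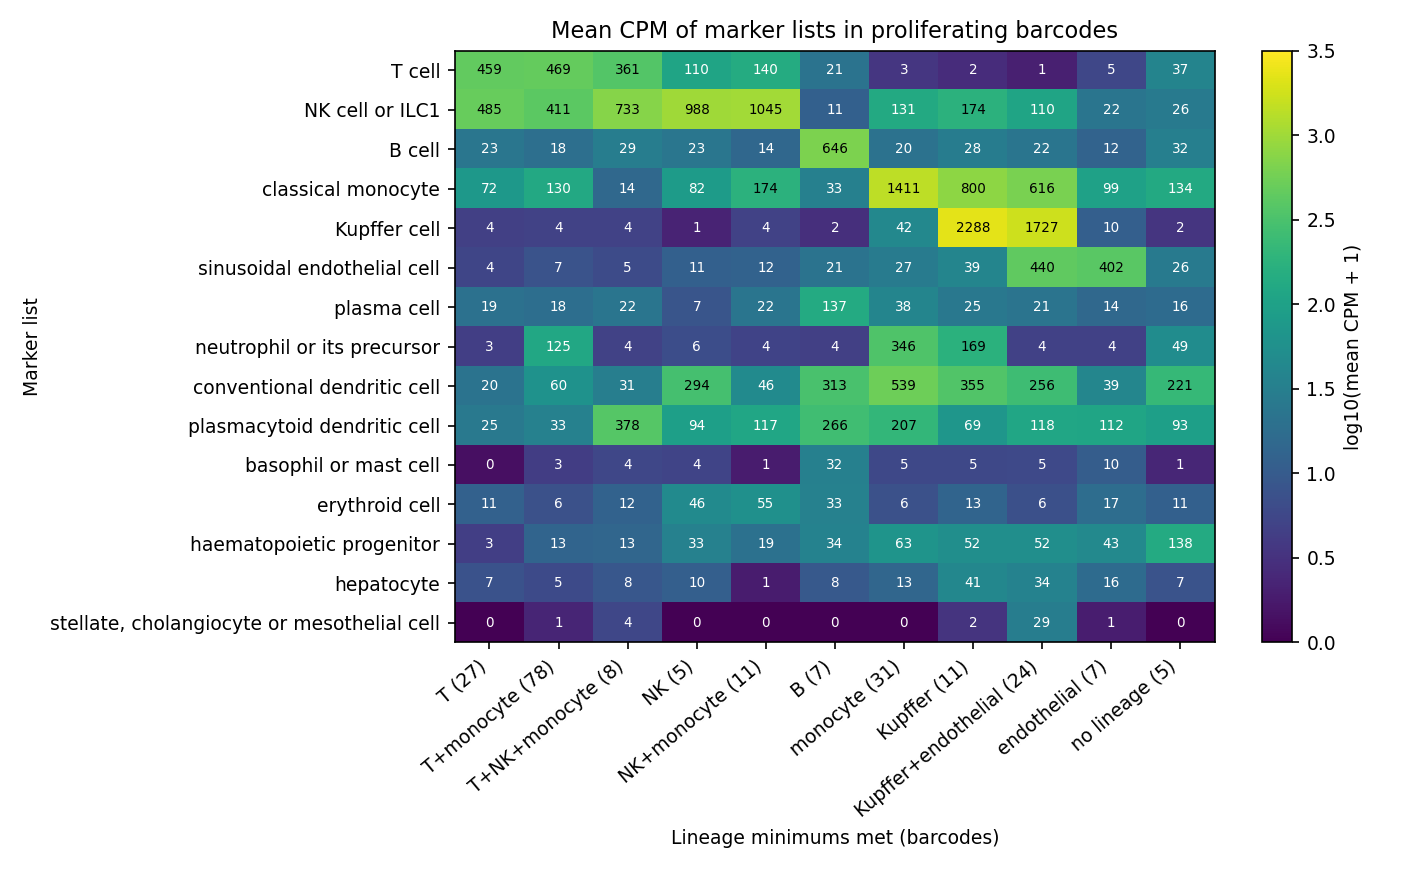
Mean CPM (numbers and colour, log10 scale) of 15 marker lists (rows) in the proliferating barcodes of each group (columns, number of barcodes in parentheses), with rule genes left out. The T with monocyte column carries T markers at 469 CPM and monocyte markers at 130, while the Kupffer with endothelial column is high for both of its lineages.

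The Kupffer with endothelial group looked different, because markers of both lineages were high. The 12 further Kupffer markers averaged 1727 CPM in its 24 proliferating barcodes, against 2288 in the 11 Kupffer-only barcodes, and the 12 further sinusoidal endothelial markers averaged 440 CPM against 38.7 in Kupffer-only. Cd5l, a scavenger protein secreted by tissue macrophages, was seen in 24 of 24 at 5087 CPM (4914 to 5265), and Timd4, a receptor for dying cells on resident Kupffer cells, in 24 of 24 at 349 CPM. Clec4g, a lectin of the sinusoidal endothelium, was seen in 17 of 24 at 751 CPM (685 to 821). The endothelial sum ran from 1.51 to 106 UMI per 10000. Stab2 reached 2 UMI in all 24, but Kdr, which encodes the VEGF receptor 2, did so in 15. The 203 barcodes of the same combination with no UMI of the pair had nearly the same averages, 1760 CPM for the Kupffer and 523 CPM for the endothelial list. Scrublet marked none of the 24 and 1 of 306 (0.327%). The 24 held a median of 25214 UMI, against 17253 in Kupffer-only and 10955 in endothelial-only proliferating barcodes. In barcodes without the pair the medians of these 3 groups were 17680, 8503.5 and 6984 UMI. Whether 1 droplet held 2 cells was not tested further.

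The 2 cycle lists, 25 DNA replication genes (Mcm2 to Mcm7, Pcna, Rrm2, Tyms and others) and 25 mitosis genes (Ccnb1, Cdk1, Birc5, Ube2c, Cenpf and others), were not part of the rule. Over all 234 barcodes the replication list held a median of 23.3 UMI per 10000 (0 to 95.9), against 3.89 in the 8918 barcodes without the pair, and the mitosis list 23.0 (0 to 177) against 0. More UMI came from the replication list in 126 barcodes and from the mitosis list in 104, with 4 equal; the lists hold different genes, so this order describes the barcodes and not cell cycle phases. Medians of both lists were higher in the lymphoid and endothelial groups than in the monocyte-only and Kupffer groups. The medians per 10000 UMI were 45.1 and 38.3 in T-only, 34.3 and 31.2 in T with monocyte, 47.6 and 26.4 in NK with monocyte, 30.3 and 54.7 in NK, 37.5 and 49.6 in T with NK and monocyte, 58.9 and 30.2 in endothelial and 24.9 and 19.6 in B barcodes. They were 5.28 and 5.56 in monocyte-only, 7.57 and 6.93 in Kupffer with endothelial and 3.91 and 1.94 in Kupffer-only barcodes, although the highest barcode of the monocyte-only group had 137 mitosis UMI per 10000 and that of the Kupffer with endothelial group 84.9.

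**Figure D4:**
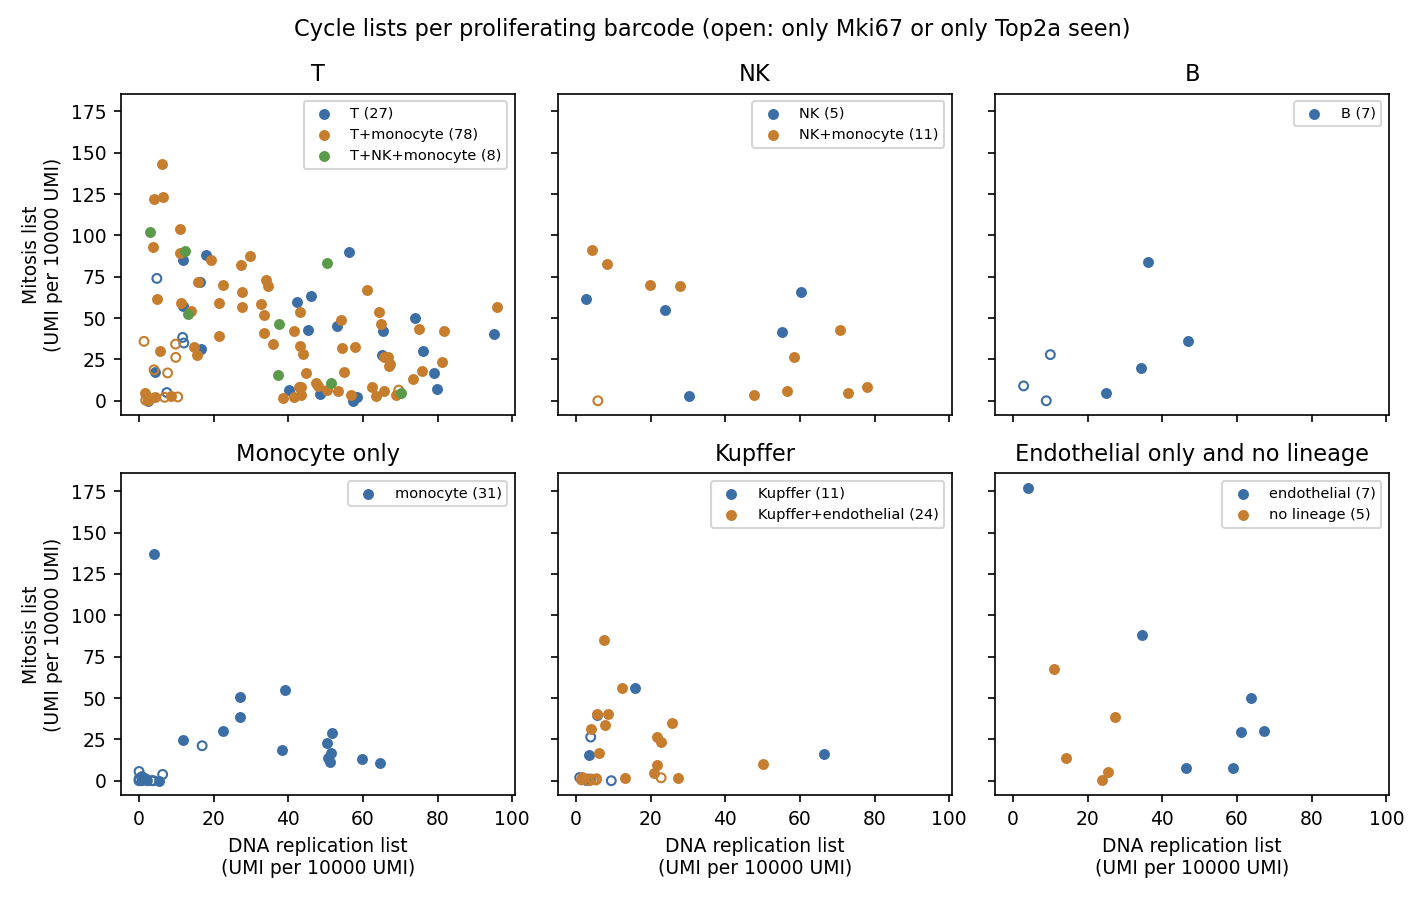
UMI per 10000 of the DNA replication list (x axis) and the mitosis list (y axis) in each proliferating barcode, in 6 panels by lineage group (number of barcodes in the key); filled points have UMI of both Mki67 and Top2a, open points of 1 of them. Lymphoid barcodes spread along both axes, whereas many monocyte-only and Kupffer points lie near the origin and are open.

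Meeting the Mki67 and Top2a minimum did not always go with the wider cycle lists. In 48 of the 234 barcodes the 2 lists together lay below 16.3 UMI per 10000, the 95th percentile of barcodes without the pair. Measured against the 95th percentile of its own group, 16 of 31 monocyte-only, 6 of 11 Kupffer-only and 8 of 24 Kupffer with endothelial barcodes were below it, but 9 of 78 T with monocyte, 2 of 27 T-only, 0 of 5 NK, 1 of 11 NK with monocyte and 0 of 7 endothelial barcodes. Of the 43 barcodes with Mki67 and no Top2a, 31 were below the first limit, of the 9 with Top2a and no Mki67 7 were, and of the 182 with both genes 10 were. In the monocyte-only group 14 barcodes carried Mki67 alone, at 450 CPM, and 13 of these lay below the group's limit with medians of 0.865 and 1.13 list UMI per 10000 over the 14. The same held for 5 of 6 such Kupffer-only and 6 of 6 such Kupffer with endothelial barcodes, but for 2 of 7 in T with monocyte. The 14 monocyte-only barcodes held a median of 11574.5 UMI, and the 15 of that group with both genes 17829; the part of depth in this split was not tested.

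Each of the 4 groups with at least 20 proliferating barcodes was compared with the kept barcodes of the same group that held no UMI of the pair. Genes with at least 20 UMI over both sides were compared, and a CPM ratio past 2-fold was counted. In the T with monocyte group (78 against 922 barcodes) 11.3% of 9678 genes were past 2-fold higher and 8.35% past 2-fold lower, with a median log2 ratio of 0.04 over all genes. Summed over each whole list with no filter, the 25 replication genes had a ratio of 6.02 (5.76 to 6.30), the 25 mitosis genes 27.8 (25.7 to 30.1) and the 12 replication-dependent histone genes 28.0 (25.6 to 30.6). A gene that is almost silent in the other barcodes passes the filter only where it is high, so single genes were counted among those with at least 20 UMI in the other barcodes alone, where 8.7% of 9185 genes were past 2-fold higher. That left 21 replication, 5 mitosis and 8 histone genes, all of them past 2-fold higher. Birc5, Bub1b, Hmmr, Cenpf and Ccna2, described next, are not among them. Each had fewer than 20 UMI in the other barcodes and passed only through the proliferating side. Birc5, which encodes survivin of the chromosomal passenger complex, had 398 CPM (363 to 435) against 0.964, a ratio of 413 (176 to 1277). Bub1b, a spindle checkpoint kinase, had 94 UMI in the 78 barcodes and 1 UMI in the 922 (ratio 405, 70.9 to 16162). Hmmr, a spindle-associated hyaluronan receptor, had a ratio of 338 (92.1 to 2817) from 157 and 2 UMI, and Cenpf, a kinetochore protein, 259 (118 to 711). Ccna2, cyclin A2, had 210 UMI and none in the 922 other barcodes, so that it was at least 302-fold higher against a floor of 3 UMI over the group. Among replication genes the ratio was 55.6 (35.2 to 92.5) for Rrm2, a subunit of ribonucleotide reductase, 10.5 (8.25 to 13.5) for Mcm5 of the replicative helicase, 8.58 (7.33 to 10.1) for Dut, which clears dUTP, and 3.16 (2.78 to 3.60) for Pcna. Rrm2 and Mcm5 were picked after their values had been seen.

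The same lists were read in T-only barcodes (27 against 792), where 15.7% of 8851 genes were past 2-fold higher and 12.9% lower and the all-gene median log2 ratio was 0.10. The whole-list ratios were 7.90 (7.39 to 8.44) for replication, 26.7 (24.2 to 29.4) for mitosis and 39.6 (35.4 to 44.2) for histone genes. With at least 20 UMI in the other barcodes alone, where 13.8% of 8554 genes were past 2-fold higher, 17 of 17 replication, 2 of 2 mitosis and 4 of 4 histone genes were. Pclaf, a PCNA-binding protein, led with 325 UMI against 3 (ratio 1163, 394 to 5667), followed by Cenpf with 98 against 1, Hmmr with 56 against 1, and Hist1h1b, a linker histone, with 508 against 10 (ratio 545, 294 to 1144). Cdca3, a trigger of mitotic entry, had 44 against 1 (ratio 472, 80.4 to 19068). These leading genes all had fewer than 20 UMI in the other barcodes. They are outside the filtered counts and passed only through the proliferating side. Hmgb2, an abundant chromatin protein, was at 4906 CPM against 531 (ratio 9.23, 8.65 to 9.86) and at 4281 against 610 (ratio 7.02, 6.71 to 7.34) in the T with monocyte group.

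Several genes of resting and naive T cells were lower in proliferating barcodes of both T groups. Of 7 naive T genes, 6 were past 2-fold lower in T-only (median log2 ratio −2.49) and 4 in T with monocyte (−1.64). Satb1, a chromatin organiser, was at 173 CPM against 1294 in T-only (ratio 0.134, 0.102 to 0.172) and 250 against 862 in T with monocyte (0.290, 0.257 to 0.326). Il7r, the interleukin-7 receptor, was at 124 against 773 and at 165 against 667 CPM, and S1pr1, which guides exit from tissue, at 288 against 419 and 224 against 255, short of 2-fold. Of 12 quiescence genes 4 and 6 were past 2-fold lower. Of all genes, 12.9% in T-only and 8.35% in T with monocyte were past 2-fold lower in this comparison. Btg1, an antiproliferative factor, had ratios of 0.275 (0.240 to 0.313) and 0.365 (0.340 to 0.391), and Klf2, a factor of resting T cells, 0.754 and 0.658. Among genes seen in at least 25% of the other barcodes, the 5 lowest ratios in T-only were those of Igfbp4, Kdm5b, Bach2, Irs2 and Ssbp2, with 1 or 2 UMI each in the 27 barcodes. Igfbp4 had a ratio of 0.0180 (0.000454 to 0.101) and Bach2, a repressor that holds T cells in a naive state, 0.0453 (0.00547 to 0.164). In T with monocyte they were Tcp11l2, Bcl2, Crim1, Kdm5b and Scml4, with Bcl2, the survival factor, at 69.0 against 362 CPM (ratio 0.190, 0.151 to 0.237). Against other barcodes of similar depth, of which there were only 13 in T-only and 35 in T with monocyte, 5 of 7 naive genes in each group were past 2-fold lower, and 3 of 9 and 3 of 12 quiescence genes that passed. All genes past 2-fold lower in that comparison were 6.35% in T-only and 5.73% in T with monocyte.

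Effector genes were mixed. Of 10 effector T genes 4 were past 2-fold higher in T-only (Zeb2, Cx3cr1, Klrg1 and Cxcr3, with a list median log2 ratio of 0.80), where 15.7% of all genes were. In T with monocyte 1 was, and the list median was −0.23. Gzmb, a killer cell protease, was the 1, at 880 CPM (828 to 935) against 424 and seen in 82.1% against 46.6% of barcodes, while Ccl5, a chemokine of memory T cells, was at 5983 against 10188 CPM (ratio 0.587, 0.573 to 0.602). In T-only Ccl5 was at 5805 against 4094 CPM and Gzmb at 735 against 373. With the similar-depth barcodes as the other side 2 of 8 effector genes that passed in T-only and 4 of 10 in T with monocyte were past 2-fold higher, where 19.2% and 13.2% of all genes were. The count of 1 of 10 is near the 11.3% of all genes, and the order of the 2 groups turned with the choice of other barcodes. Gzma, another granule protease, was at 3249 against 606 CPM in T-only (ratio 5.37, 4.99 to 5.77) and 2487 against 1872 in T with monocyte. Among cycle regulators with at least 20 UMI in the other barcodes alone, 6 of 12 in T-only and 8 of 15 in T with monocyte were past 2-fold higher, where 13.8% and 8.7% of all genes were. E2f8 had 39.9 against 0.772 CPM in T with monocyte and Foxm1 54.0 against 1.16. Both had fewer than 20 UMI in the other barcodes and are outside that count. Ccnd2, cyclin D2, was past 2-fold lower in both (ratios 0.463 and 0.468), and Cdkn1b, the inhibitor p27, in T-only (0.416).

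**Figure D5:**
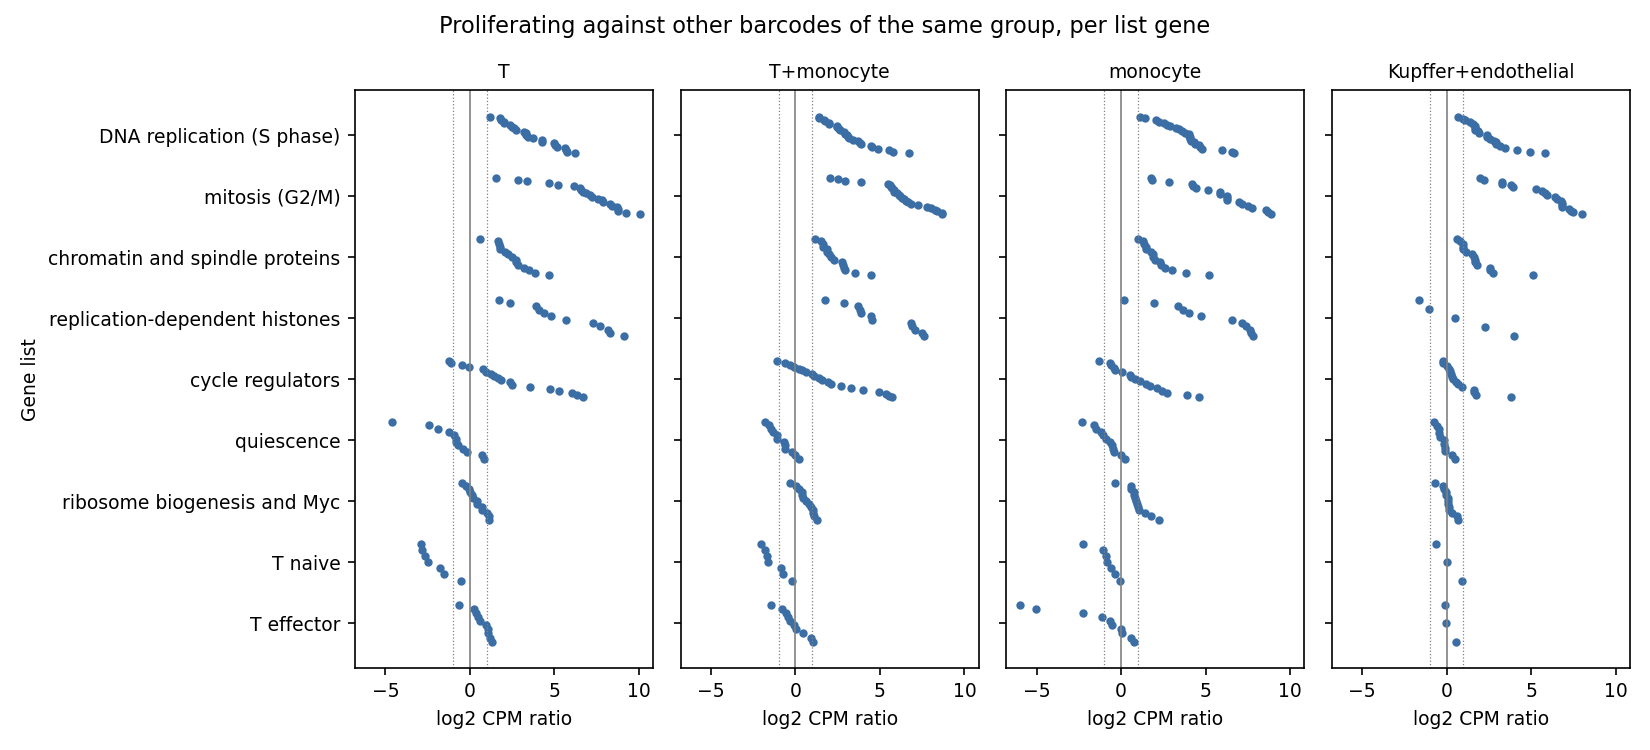
log2 CPM ratio (x axis) of each gene that passed the filter, proliferating over other barcodes of the same group, by gene list (y axis) in 4 groups; dotted lines mark 2-fold, and a side with 0 UMI was set to 3 UMI. Replication and mitosis genes lie to the right, where many mitosis genes pass the filter only through the proliferating side, and most naive T genes lie to the left in both T groups.

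The 2 T groups differed in what kind of T cell they carried. Compared with all other proliferating barcodes, those of the T with monocyte group were led by Gzmk (171 against 15.7 CPM, ratio 10.9, 7.85 to 15.5), a protease of memory CD8 T cells, and Cd8b1 (472 against 47.4 CPM, ratio 9.96, 8.23 to 12.1), the CD8 beta chain, then by Celsr1, S100a9 and Bdh1. At least 2 UMI of Cd8a and Cd8b1 together were found in 58 of the 78, and of Cd4 in 5. The pair stood at 725 CPM (677 to 774) against 709 (687 to 733) in the 922 other barcodes, and these intervals overlap. T-only barcodes were led by Klra6, Tnfrsf4, Cd4, Mylpf and Xcl1. Klra6, an inhibitory Ly49 receptor with close paralogs that can share reads, was seen in 9 of 27, Cd4 also in 9 and Xcl1, a chemokine, in 8. Within T-only barcodes Cd4 was no higher, at 80.7 CPM (53.6 to 117) against 105 (94.6 to 116) in the 792 others, and these intervals overlap. CD8 genes reached 2 UMI in 12 of the 27, Cd4 in 7, and Ikzf2, which encodes Helios, in 14 of 27 at 504 CPM (432 to 585) against 253 in the other T-only barcodes. Foxp3, the factor of regulatory T cells, had 1 UMI in 1 of 27 and reached 2 UMI in 4 of 78. The sets of Ikzf2 and of combined Klra genes were looked at after their values had been seen. NK markers averaged 485 CPM in T-only barcodes against 180 in the 792 others; their part in these values was not tested.

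The 8 barcodes that met T, NK and monocyte minimums together were led by Ccr9, Cd40lg, Il12rb2, Setbp1 and Zbtb16. Zbtb16 encodes PLZF, the factor of innate-like T cells, and was seen in 4 of the 8 at 118 CPM, against 108 in 127 other barcodes of that combination. Ccr9 was seen in 2. Siglech, a plasmacytoid dendritic cell receptor, had 17 UMI in 1 of the 8 (134 CPM over the group) and 0 CPM in the 127 others. NK markers averaged 733 CPM and T markers 361 CPM there. In the 11 NK with monocyte barcodes NK markers averaged 1045 CPM and T markers 140, and Klra4, Klra8, Klri2, Klrb1a and Klrb1b led, with Klra4 in 3 of 11. The monocyte minimum was met there through Ccr2 in 10 of 11 and through Ly6c2 in 2. Monocyte markers averaged 174 CPM with a median of 2.57 and a highest value of 233 UMI per 10000, and the highest, with 320 monocyte marker UMI, was the barcode of this group that Scrublet marked as a doublet; the other 10 held 7 or fewer. In the 5 NK-only barcodes Klrb1a, Klrb1b, Gcnt1, Vegfa and Cd200r4 led and Cd3g was at 0 in all 5. Their replication UMI were 21, 57, 64, 5 and 62 and their mitosis UMI 48, 62, 48, 114 and 6, in order of depth from 8771 to 20480 UMI, and the deepest, which Scrublet marked as a doublet, also carried 78 UMI of the antigen-presentation gene H2-Ab1 and 187 UMI of conventional dendritic cell markers, beside 191 of NK markers. All but the deepest had more than 40 mitosis UMI.

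The 31 monocyte-only barcodes were a mixture. Against all other proliferating barcodes they were led by Elane, Fn1, Chil3, Prtn3 and Gpr141. Elane, neutrophil elastase, is made together with Mpo, Prtn3 and Ctsg by granulocyte and monocyte precursors; it had 393 UMI, all in 8 of the 31. The 4 genes together reached 10 UMI in 7 barcodes, against 1 of 734 other barcodes of the group, and all 7 lay above the group's cycle-list limit, with medians of 39.2 replication and 21.1 mitosis UMI per 10000. F13a1, Fn1 and Vcan, genes of classical monocytes, reached 10 UMI in 15 barcodes, 4 of which were among the 7; 6 of the 15 lay above the limit. H2-Ab1 reached 10 UMI in 8 barcodes, none of them in either set, of which 2 lay above the limit and 6 had Mki67 alone. Cd209a, a lectin of a dendritic cell subset, reached 10 UMI in 3 barcodes, which had Mki67 alone and lay below the limit, and Siglech, a plasmacytoid dendritic cell receptor, in 2, both above it. These sets were formed after the values had been seen. Over the 31 barcodes, plasma cell markers ran from 0 to 377 UMI per 10000 with a median of 3.08. Kupffer markers ran from 0 to 164 with a median of 0.719, so the highest barcodes of both lists lay far above the median.

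Compared with 734 barcodes of their own group, 9.78% of 9641 genes were past 2-fold higher in the monocyte-only barcodes and 11.6% lower, with a median log2 ratio of 0.01. The whole-list ratios were 8.68 (8.03 to 9.38) for replication, 16.9 (15.3 to 18.8) for mitosis and 23.1 (20.7 to 25.7) for histone genes. With at least 20 UMI in the other barcodes alone, where 8.17% of 9385 genes were past 2-fold higher, 14 of 14 replication, 4 of 4 mitosis and 3 of 4 histone genes were. Pclaf led with 296 UMI against 7 (ratio 483, 231 to 1211), then Nusap1, Ccna2 and Hmmr with 41, 36 and 33 UMI against 1 each, and Hist1h1b with 289 against 15 (ratio 220, 131 to 398). With fewer than 20 UMI in the other barcodes, these leading genes are outside the filtered counts and passed only through the proliferating side. Ribosome biogenesis and Myc genes were past 2-fold higher in 5 of 13 that passed, among them Ncl, nucleolin, at 827 against 395 CPM and Srm, spermidine synthase, at 64.1 against 13.8. Against 108 barcodes of similar depth 3 of 12 were, and the share of all genes higher in that comparison is not given here. Klf2 was at 117 against 583 CPM (ratio 0.201, 0.150 to 0.264), and 5 of 12 quiescence genes were past 2-fold lower (3 against the 108 barcodes of similar depth, where 8.17% of all genes were). Markers of other cell types differed in both directions. Among those that passed, 9 of 12 T, 8 of 12 NK, 6 of 7 B (the other 1 was higher) and 8 of 10 plasmacytoid dendritic cell markers were past 2-fold lower, and neutrophil markers were split, with 4 higher and 5 lower. The higher B marker passed only through the proliferating side. Against the 108 barcodes of similar depth no T marker passed the filter. There 1 of 4 NK markers was past 2-fold lower and 1 higher, and 1 of 4 B and 6 of 10 plasmacytoid dendritic cell markers were lower. Kupffer markers had 3 of 8 higher and 1 lower, with a whole-list ratio of 2.54 (2.19 to 2.94), progenitor markers 3 of 6 higher and 1 lower, at 1.41 (1.24 to 1.59), and conventional dendritic cell markers 1 of 9 higher and none lower, at 1.26 (1.20 to 1.31). S100a9, a neutrophil protein, was at 17.7 against 6510 CPM (ratio 0.00272, 0.00117 to 0.00536), Ccl5 at 24.3 against 1546, Ets1 at a ratio of 0.0312 (0.00377 to 0.113) from 2 UMI, Pglyrp1 at 0.0457 (0.00940 to 0.134) from 3 UMI and Siglech at 81.8 against 688. The part of this makeup in the ratios was not tested.

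The 24 Kupffer with endothelial barcodes were compared with 203 others. Of 9918 genes, 4.17% were past 2-fold higher and 3.87% lower (median log2 ratio 0.01). The whole-list ratios were 3.69 (3.38 to 4.02) for replication and 19.1 (17.0 to 21.6) for mitosis genes. With at least 20 UMI in the other barcodes alone, where 2.64% of 9563 genes were past 2-fold higher, 14 of 16 replication and 3 of 3 mitosis genes were. Pclaf had 93 UMI against 2 (ratio 283, 76.1 to 2369), Hmmr 43 against 1, Pimreg 36 against 1, Ccnb2, cyclin B2, 29 against 1 and Birc5 80 against 3 (ratio 162, 53.5 to 803). All of these had fewer than 20 UMI in the other barcodes, so they are outside the filtered counts and passed only through the proliferating side. Cdkn2c, the inhibitor p18, was at 64.2 against 4.63 CPM (ratio 13.8, 7.78 to 25.6) and was seen in 12 of 24, a value picked after it had been seen. It too had fewer than 20 UMI in the other barcodes. The 12 replication-dependent histone genes had a whole-list ratio of 1.37 (1.12 to 1.67). They averaged 16.6 CPM in these barcodes and 8.64 CPM in the 11 Kupffer-only barcodes, against 361 in T-only, 256 in T with monocyte and 189 in monocyte-only barcodes. None of 11 quiescence genes and none of 12 Kupffer or 12 endothelial markers was past 2-fold in either direction. Klf2 had a ratio of 0.733 and Btg1 0.912. The genes with the lowest ratios, Tshz3, Rps6kc1, Lnx2, Klhl21 and Egr2, had few UMI; Tshz3 had 2 against 73 (ratio 0.167, 0.0198 to 0.624). Cycle-list UMI were unevenly spread within the group: of 15 barcodes with at least 10 UMI of Clec4g and Kdr, 13 lay above the group's limit, and of the 9 with fewer, 3 did. Against all other proliferating barcodes Flrt1, Sdc2, Pla2r1, Cyr61 and Inhbb led, at 26.6 to 53.2 CPM.

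The 11 Kupffer-only barcodes carried 4 to 165 UMI of Clec4f and 21 to 172 of Cd5l. Their mitosis UMI were 25, 27, 2, 1, 26, 2, 28, 2, 0, 93 and 1 and their replication UMI 7, 4, 1, 4, 6, 4, 115, 7, 20, 13 and 10, in order of depth from 4453 to 25522 UMI. The mitosis UMI fell into 5 barcodes with 25 or more and 6 with 2 or fewer, and 1 barcode exceeded 20 on the replication list. Kcnj10, A530076I17Rik, Lsmem1, B3galnt1 and Slc45a3 led against the other proliferating barcodes. The deepest barcode also held 187 UMI of S100a9.

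Of the 7 endothelial-only barcodes 6 carried Clec4g and Stab2 and 1 did not. In order of depth they held 8, 19, 20, 14, 24, 8 and 0 UMI of Clec4g and 2, 10, 10, 6, 12, 9 and 0 of Stab2. The last, at 93990 UMI the deepest of all 234, held 58.3% of the group's UMI, 5 UMI of Kdr, 490 UMI of Pf4 (platelet factor 4), 61 of Itga2b (the platelet integrin chain) and 33 of Vwf, genes of megakaryocytes, so it goes against its lineage name. Pf4, Itga2b, Clu and Gchfr were among the genes that led the group, the first 2 through this barcode. With it, endothelial markers averaged 402 CPM, replication genes 194 and mitosis genes 112; without it the averages were 947 (881 to 1016), 205 (184 to 228) and 225 (203 to 249). All 6 others held both Mki67 and Top2a, and their mitosis UMI were 89, 27, 8, 32, 77 and 146.

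The 7 B barcodes came from 2922 that met the B minimum alone. Their B markers averaged 646 CPM against 1069 in 2771 others. Vpreb3, which associates with the pre-B cell receptor, led with 261 CPM (163 to 395) over the other proliferating barcodes, followed by Cecr2, Fcmr, Iglc3 and Ighd; in B barcodes without the pair Vpreb3 was at 245 CPM (235 to 255), and these intervals overlap. Ighd, the IgD heavy chain, was at 213 CPM (126 to 337) against 800. Ighm UMI were 10, 16, 54, 77, 86, 1 and 7 in order of depth, and the deepest barcode, with 23982 UMI, held 3 UMI of Cd79a, 2 of Ebf1 and 27 of the whole B marker list, beside 21 UMI of haematopoietic progenitor, 19 of basophil or mast cell and 18 of erythroid markers, and its B lineage rests on few UMI. The next deepest held 95 UMI of B markers and 171 of conventional dendritic cell markers, a list that averaged 313 CPM in the 7 and 578 CPM in the 2771 others. No other B barcode held any basophil or mast cell UMI, and Scrublet marked none of the 7. In all, 2 of the 7 lay below the group's cycle-list limit.

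The 5 barcodes that met no lineage were led by Dntt, Flt3, Tnfsf11, Jag2 and Sox4. Dntt, the terminal transferase of lymphoid precursors, had 0, 2, 11, 23 and 2 UMI in order of depth from 13751 to 26236 UMI, and 38 UMI in the 5 against 3 in the other 229. Cd34, Kit and Flt3, genes of haematopoietic progenitors, together stood at 780 CPM (618 to 971) against 54.3 in the 1300 other barcodes with no lineage, and 4 of the 5 held at least 10 UMI of them. The deepest carried 24 UMI of Mpo and the others none, and the shallowest, which lacked Dntt and Flt3, held 157 UMI of conventional dendritic cell and 91 of monocyte markers. All 5 held both Mki67 and Top2a and lay above the limit of the cycle lists.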

How the data were processed

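Single-cell libraries of sorted, collagenase-digested liver immune cells were made on the 10x Genomics platform, per the labels' protocols. The deposited matrix holds raw UMI counts of 31053 genes in 11192 barcodes, with software version 3.0.0 per the file headers. Cell Ranger 2.1.1, STAR, Seurat 2.3.4 and mm10 are named, without roles, per the submitters' processing notes. Members, lists and lineage groups were chosen with earlier results of these data known.

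Counts were summed over barcodes and divided by total UMI (CPM) with Python 3.11.15, numpy 2.4.6, scipy 1.17.1 and pandas 2.3.3, and plots drawn with matplotlib 3.10.9. Doublets were marked with Scrublet (scanpy 1.11.5) and kept. Genes with at least 20 UMI over both sides were compared, and a side with 0 UMI was set to 3. The ratio and interval code was tested on simulated data. Named genes were those of the rule, the 3 highest of each list, the 5 highest and 5 lowest ratios within each group of at least 20 barcodes, and the 5 leading each lineage, seen in at least 25% of barcodes on the higher side; named genes outside these were chosen after their values were seen. One gene that this rule names is not reported here. Alternatives changed the minimums, filters, doublets, weighting, CPM total and depth.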

Additional observations from a re-analysis of the deposited data

How the results depend on the processing

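Of 555 recomputed values 374 stayed within their counting interval, or within 1.5 times for counts, and 181 moved. Thinned to 2000 UMI, the shares with at least 4 UMI of the pair were 2.43% (T), 0.223% (B), 2.51% (monocyte) and 1.50% (Kupffer), and those with at least 1 UMI were 9.67%, 3.51%, 9.37% and 8.72%. The Kupffer share was thus above the T share at full depth and below it after thinning, but their intervals overlapped at each of these settings. With a minimum of 3 UMI the T, B and monocyte shares were 5.91%, 0.964% and 6.40%. With 6 UMI the T, monocyte and Kupffer shares were 4.10%, 4.17% and 4.51%, and 18 barcodes were monocyte-only. At most 5% mitochondrial UMI left 148 barcodes, 87 of several lineages and 17 T-only, and a B share of 0.933%. A lineage minimum of 1 left 15 T-only barcodes and a Kupffer share of 4.34%. Taking the first lineage met gave 125 T barcodes and a monocyte share of 3.72%. Without the exclusions 50 barcodes were monocyte-only. Requiring both genes left 15 monocyte-only barcodes and shares of 4.13% (monocyte) and 3.96% (Kupffer). The mean replication-list CPM in T with monocyte barcodes was 162 at 6 UMI, 157 without doublets, 203 without mitochondrial, ribosomal protein and haemoglobin genes, 142 with equal weights and 161 with both genes; the mitosis list gave 167 at 6 UMI, 208 without those genes, 148 with equal weights and 166 with both genes. In monocyte-only barcodes the replication list gave 143, 133, 76.9 and 162 and the mitosis list 109, 104, 66.3 and 124 in that order of settings (6 UMI, without those genes, equal weights, both genes). Comparing genes with at least 100 UMI, fewer were tested: 13 replication and 4 mitosis genes were past 2-fold higher in T-only, 16 mitosis genes in T with monocyte, 8 and 2 in monocyte-only, and 4 and 5 in Kupffer with endothelial barcodes. Of all genes then tested, 5.15% were past 2-fold lower in T with monocyte, 5.21% past 2-fold higher in monocyte-only, and 0.948% higher and 0.799% lower in Kupffer with endothelial barcodes. In T-only, 7.69% of genes were lower with equal weights and 6.35% against barcodes of similar depth. With both genes required, 17.4% were higher in monocyte-only and 6.26% in Kupffer with endothelial barcodes. With at least 20 UMI in the other barcodes alone, which removes genes seen mainly in proliferating barcodes, past 2-fold higher were 2 mitosis genes in T-only, 5 in T with monocyte, 4 in monocyte-only and 3 in Kupffer with endothelial barcodes, 14 replication genes in monocyte-only barcodes, and 2.64% of all genes in Kupffer with endothelial barcodes. Effector genes past 2-fold higher were 4 in T-only and 1 in T with monocyte barcodes, and 2 and 4 against barcodes of similar depth. The cause of the other movements was not tested. Thinning with a minimum of 1, requiring both genes, matching depth and the filter on the other barcodes alone were added after seeing the data. No paired analysis was possible because 1 matrix was analysed and no test was made. Groups of 5 to 11 barcodes limit the depth of what can be told for NK, B, endothelial and Kupffer-only barcodes.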
